A study of Mus musculus with 96 samples.

Results

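Meiotic cohesin and the proteins of the meiotic chromosome axis were followed here through 8 genes: Rec8, Rad21, Smc1b, Stag3, Stag1, Sgo2a, Hormad1 and Sycp3. They are 8 of the 36935 gene symbols in the count table. They were taken by name, for what their products do, with earlier results of these data known. The libraries come from single mouse cells, a line with a variant of Padi6 that alters its protein (P620A). By their labels, 22 libraries are metaphase II oocytes of Padi6P620A/P620A females, 22 are single blastomeres of 2-cell embryos with the variant on the maternal allele (Padi6MatP620A/+), 22 are Padi6+/+ oocytes, 22 are Padi6+/+ 2-cell blastomeres and 8 are negative controls. Females of 4 to 8 weeks were given PMSG, then hCG about 52 hours later, and were killed about 13 hours after hCG. Embryos came from in vitro fertilisation with sperm of males of 8 to 12 weeks, and cumulus cells were taken off with hyaluronidase.

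Cohesin is a ring of SMC1 and SMC3 proteins closed by a kleisin subunit, with a STAG protein bound to the kleisin, and it holds sister chromatids together. In germ cells REC8 replaces the kleisin RAD21, SMC1B replaces SMC1A, and STAG3 replaces STAG1 and STAG2. In mammalian oocytes REC8 cohesin is loaded before birth and must hold until the meiotic divisions, and shugoshin 2 (Sgo2a) shields it at centromeres in the first of them. HORMAD1 and SYCP3 are axis proteins of meiotic prophase, on which the synaptonemal complex is built. A metaphase II oocyte transcribes almost nothing, so its RNA is what it stored while growing, and the 2-cell embryo loses much of that store while it starts to transcribe its own genome.

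Of 96 libraries, 79 reached 100000 counts and 4000 detected genes. They were classed by 2 genes and not by their stage labels. Mos, whose kinase keeps mature oocytes arrested, made a library oocyte-like at 100 or more counts per 1000000 of its total (CPM). Below that, at least 1 count of Zfp352, a gene of the 2-cell embryo's first wave of transcription, made it 2-cell-like. This gave 39 2-cell-like and 39 oocyte-like libraries, with 1 library in neither class. Mos was 0 to 63.3 CPM in 2-cell-like and 201 to 6139 CPM in oocyte-like libraries, so 63.3 and 201 CPM were the values of these libraries nearest the threshold. In 49 of the 73 kept libraries with a stage label, the class and the label disagreed: all 19 labelled mutant oocyte were 2-cell-like and all 14 labelled wild-type 2-cell were oocyte-like. Of the libraries labelled mutant 2-cell, 11 were 2-cell-like and 9 oocyte-like, and of those labelled wild-type oocyte, 7 were 2-cell-like and 12 oocyte-like. The kept negative controls had cell-like counts too, 2 of them 2-cell-like and 4 oocyte-like. How labels and cells came apart was not tested, and gene counts do not read the Padi6 variant, so the genotype labels have no check here.

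Total counts were 503644 to 3185910 in 2-cell-like and 162539 to 5762563 in oocyte-like libraries, with a median of 10370 detected genes in 2-cell-like and 13671 in oocyte-like libraries. Leaving out Mos, which set the classes, 9 oocyte markers summed to 3131 to 11828 CPM in 2-cell-like and 3971 to 60422 CPM in oocyte-like libraries, and all 9 had counts in both. Leaving out Zfp352, 8 markers of the 2-cell burst summed to 49.4 to 3425 CPM in 2-cell-like and 0 to 15.8 CPM in oocyte-like libraries, and 3 of the 8 had no count in any oocyte-like library. Cumulus and granulosa markers differed between the classes: 13 of 16 had a count in 2-cell-like libraries, with a sum of 0 to 162 CPM, and 16 of 16 in oocyte-like libraries, with a sum of 14.8 to 10696 CPM. Oviduct epithelium markers summed to 0 to 331 CPM in 2-cell-like and 24.1 to 3585 CPM in oocyte-like libraries. Sperm markers summed to at most 54.2 CPM in 2-cell-like and 18.5 CPM in oocyte-like libraries, and blood markers to at most 49.1 CPM in 2-cell-like and 388 CPM in oocyte-like libraries. Since the labels name no animal, each class or label group counts as 1 sample; the values below describe these libraries and carry no p-value. Fewer molecules of one RNA and a larger total of the others cannot be told apart in CPM.

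In the 2-cell-like libraries the prophase axis genes Hormad1 and Sycp3 and the meiotic STAG gene Stag3 were higher than in oocyte-like libraries, and Sgo2a was lower. Pooled over libraries, Stag3 was 12.2-fold, Hormad1 3.69-fold and Sycp3 2.59-fold higher, and Sgo2a was 2.44-fold lower. Smc1b, Stag1 and Rad21 stayed within 2-fold, all on the lower side. Rec8 was rare in both classes and did not pass the gene filter, which asks for a pooled level of at least 10 CPM in 1 class and a count in at least 50% of that class's libraries. Of the 7 genes that passed, 3 were higher past the 2-fold limit and 1 was lower. Stag3 and Hormad1 passed only through the 2-cell-like class, with 1.05 and 7.48 CPM in oocyte-like libraries. Smc1b passed only through the oocyte-like class, with 7.84 CPM in 2-cell-like libraries. Among all 9677 genes that passed, 20.9% were higher by that much, 27.8% lower and 48.7% either way, so 4 of 7 is a share near that of genes at large. The median log2 ratio was -0.21 over the 7 genes and -0.08 over all genes. For 0 of the 7 did the ranges of the classes stand apart, against 0.434% of all genes. Genotype label went with class: 30 2-cell-like libraries were labelled mutant and 7 wild type, against 9 and 26 oocyte-like ones. Class and genotype label cannot be fully told apart here. Among the wild-type-labelled, 2-cell-like then oocyte-like, Stag3 was 3.50 and 1.22 CPM and Hormad1 27.7 and 7.45 CPM. Sycp3 was 55.5 and 22.4 CPM there, and Sgo2a 78.6 and 122 CPM, under 2-fold apart. Among the mutant-labelled, in the same order, the values were 14.9 and 0.195, 29.5 and 6.70, 58.1 and 21.2, and 42.9 and 119 CPM.

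**Figure D1:**
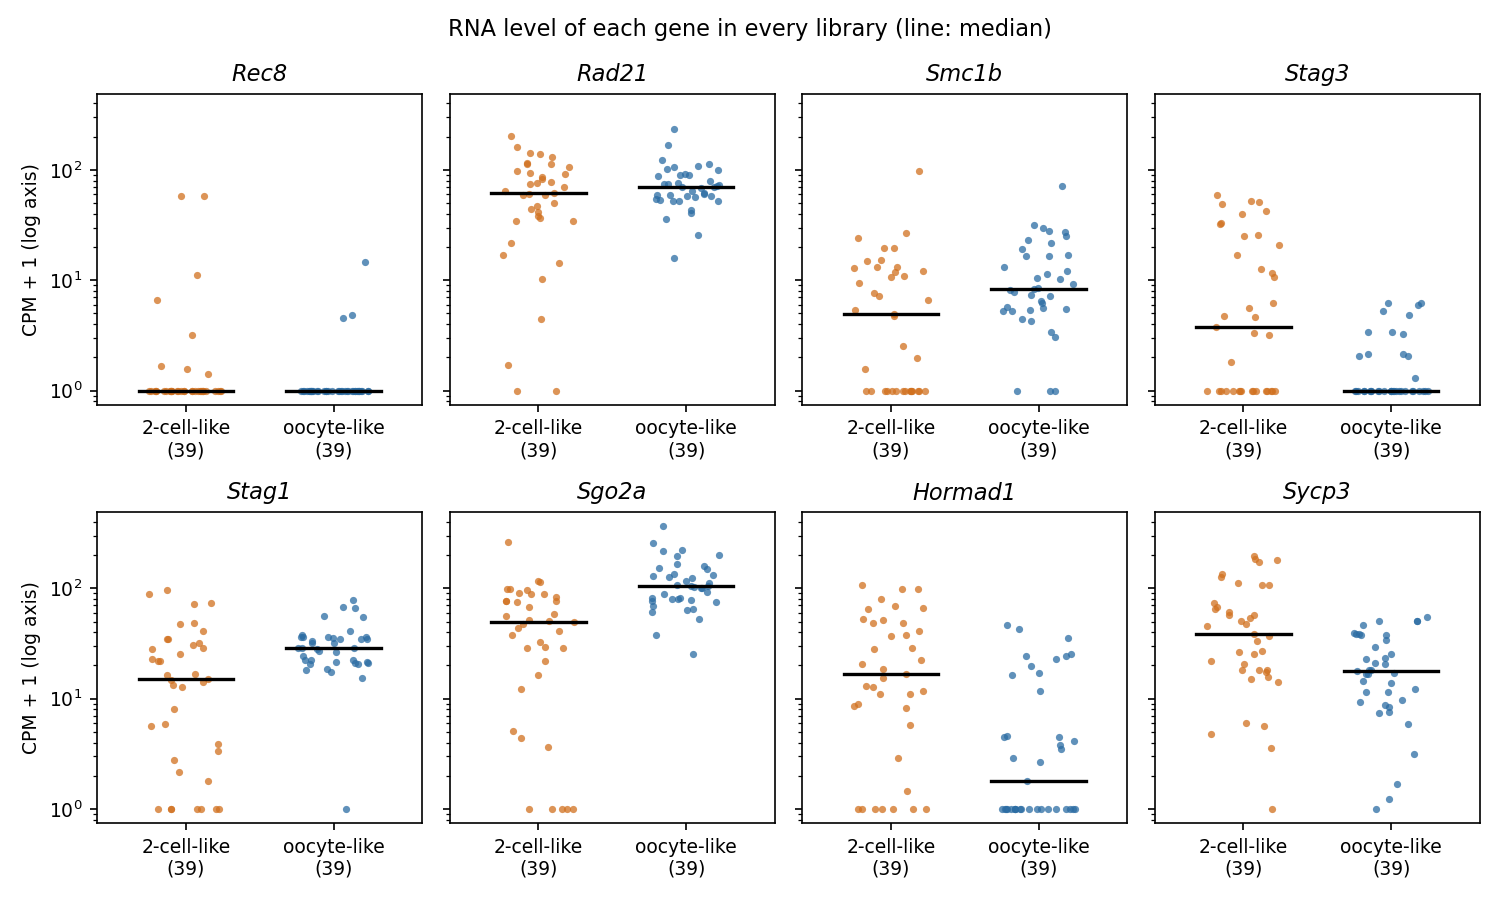
CPM plus 1, on a log axis, of the 8 genes in each of the 39 2-cell-like libraries (left in each panel) and 39 oocyte-like libraries (right), 1 point per library with a line at the median. Stag3 and Hormad1 reach 57.8 and 106 CPM in 2-cell-like libraries, against 5.22 and 45.2 CPM in oocyte-like ones, while most libraries of both classes lie at 0 for Rec8.

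The kleisins come first, since they close the ring. Rec8, the meiotic kleisin that separase cuts when chromosomes part, had a count in 8 of 39 2-cell-like and 3 of 39 oocyte-like libraries. Its levels in the 2-cell-like libraries with a count were 56.7, 56.5, 10.0, 5.61, 2.19, 0.657, 0.566 and 0.398 CPM, and in the oocyte-like ones 13.5, 3.85 and 3.54 CPM. So the median was 0 in both classes, and 2 libraries labelled mutant, 31 and 83, hold most of the 2-cell-like counts. The pooled level was 3.87 CPM in 2-cell-like and 0.670 CPM in oocyte-like libraries, a ratio of 5.77 (95% counting interval 4.44 to 7.58) that was 2.56 without library 31 and 27.7 without oocyte-like library 61. Library 61 also had the highest sum of cumulus and granulosa markers, 10696 CPM, and library 59, with 3.85 CPM of Rec8, had the highest sum of oviduct markers, 3585 CPM; their part in the Rec8 counts was not tested.

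Rad21, the kleisin of mitotic cohesin, was present in nearly every library. It had 0, 60.4 and 202 CPM as lowest, median and highest value in 2-cell-like libraries, against 14.8, 68.6 and 236 CPM in oocyte-like libraries. The classes overlapped over most of their range, with 6 2-cell-like libraries below every oocyte-like one. Pooled levels were 63.9 CPM in 2-cell-like and 73.9 CPM in oocyte-like libraries, 1.16-fold lower (1.13 to 1.20).

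Smc1b encodes the meiotic form of the SMC1 arm of the ring. Its lowest, median and highest levels were 0, 3.98 and 96.5 CPM in 2-cell-like libraries and 0, 7.25 and 71.1 CPM in oocyte-like libraries. Its counts were patchier in the 2-cell-like class, with a count in 24 of 39 libraries against 36 of 39, and the ranges overlapped almost wholly. The pooled level was 7.84 CPM in 2-cell-like and 11.6 CPM in oocyte-like libraries, 1.48-fold lower (1.33 to 1.64), within the 2-fold limit.

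Stag3, the meiotic STAG subunit, differed most of the genes that passed. It had 0, 2.78 and 57.8 CPM as lowest, median and highest level in 2-cell-like libraries, against 0, 0 and 5.22 CPM in oocyte-like libraries. In the 2-cell-like class it was split, with 16 libraries at 0 and 15 above every oocyte-like library. Pooled, it was 12.8 CPM in 2-cell-like and 1.05 CPM in oocyte-like libraries, a ratio of 12.2 (10.0 to 14.9). Most of the high 2-cell-like values carry a mutant label. The 30 2-cell-like libraries labelled mutant had 14.9 CPM pooled, and the 7 labelled wild type had 3.50 CPM, with a median of 0. Of those 7, library 8 had 10.5 CPM, and the next highest, at 5.18 CPM, was not above every oocyte-like library. After each library was thinned to 100000 counts, Stag3 still had a count in 15 2-cell-like and 2 oocyte-like libraries; unthinned, it had one in 23 2-cell-like and 13 oocyte-like libraries.

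Stag1, a STAG subunit of mitotic cohesin, went the other way by less than 2-fold. Its lowest, median and highest levels were 0, 13.9 and 94.8 CPM in 2-cell-like and 0, 27.7 and 77.9 CPM in oocyte-like libraries. The ranges overlapped almost wholly, with 2 2-cell-like libraries above every oocyte-like one. Pooled, the levels were 23.3 CPM in 2-cell-like and 31.7 CPM in oocyte-like libraries, 1.36-fold lower (1.28 to 1.45). Within the 2-cell-like class Stag1 was higher in libraries with more genes detected (Spearman's rho = 0.65 over 39 libraries, a description), but had little relation to their total counts (rho = 0.06).

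Sgo2a, which brings the phosphatase PP2A to centromeric REC8, was the only one of the 8 at least 2-fold lower. It had 0, 48.7 and 262 CPM as lowest, median and highest level in 2-cell-like libraries, against 24.6, 104 and 365 CPM in oocyte-like libraries. All 39 oocyte-like and 34 of 39 2-cell-like libraries had a count, and 11 2-cell-like libraries lay below every oocyte-like one. The pooled level was 48.4 CPM in 2-cell-like and 118 CPM in oocyte-like libraries, 2.44-fold lower (2.35 to 2.54). Its close copy Sgo2b was 2.08-fold lower, at 7.07 CPM in 2-cell-like and 14.7 CPM in oocyte-like libraries, and reads shared between the copies could have been counted for either.

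Hormad1 marks unsynapsed axes and promotes recombination and its surveillance in prophase. Its lowest, median and highest levels were 0, 15.7 and 106 CPM in 2-cell-like libraries and 0, 0.802 and 45.2 CPM in oocyte-like libraries. A count was present in 32 2-cell-like and 20 oocyte-like libraries, or 27 2-cell-like and 10 oocyte-like after thinning, and 11 2-cell-like libraries exceeded every oocyte-like one. Pooled, it was 27.6 CPM in 2-cell-like and 7.48 CPM in oocyte-like libraries, a ratio of 3.69 (3.40 to 4.01). The oocyte-like level varied with the label. It was 0.555 CPM in the 14 labelled wild-type 2-cell, 6.70 CPM in the 9 labelled mutant 2-cell and 14.4 CPM in the 12 labelled wild-type oocyte. Those 12 had a median of 17.3 CPM, above the 2-cell-like median, so the size of the ratio depends on the mix of labels.

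Sycp3, a building block of the axis, was found in 38 of 39 libraries of either class. It had 0, 37.2 and 196 CPM as lowest, median and highest level in 2-cell-like libraries, against 0, 16.8 and 54.5 CPM in oocyte-like libraries. Thus the difference was one of level and not of presence, and 15 2-cell-like libraries lay above every oocyte-like one. Pooled levels were 55.4 CPM in 2-cell-like and 21.4 CPM in oocyte-like libraries, a ratio of 2.59 (2.46 to 2.73).

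**Figure D2:**
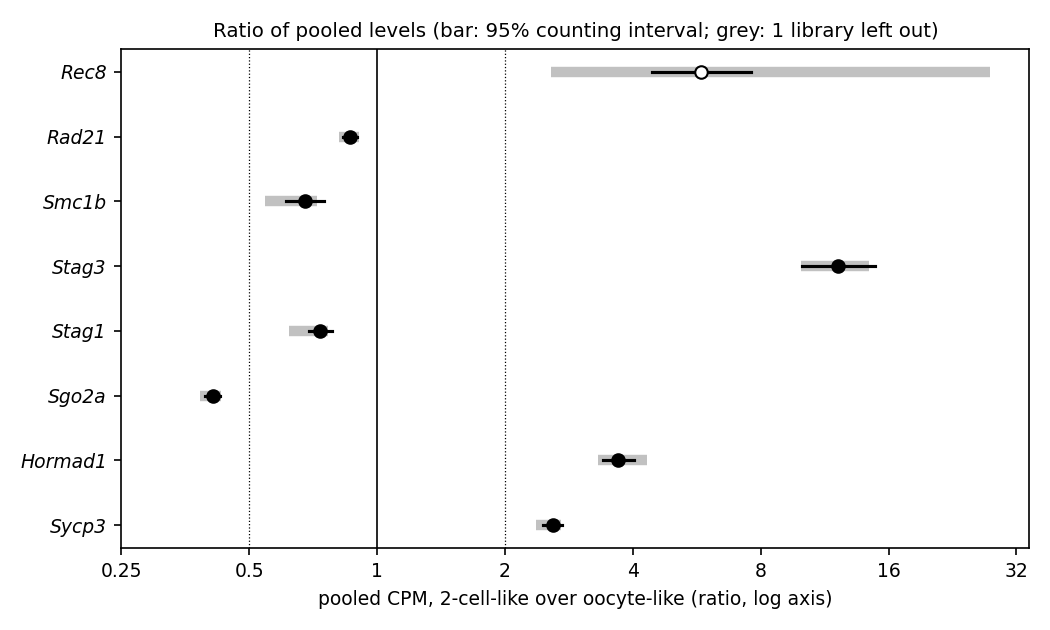
Ratio of pooled CPM, 2-cell-like over oocyte-like, for each gene on a log axis; the black bar is the 95% counting interval, the grey bar the range when each library is left out in turn, dotted lines are 2-fold, and the open point is Rec8, which did not pass the gene filter. Stag3 at 12.2, Hormad1 at 3.69 and Sycp3 at 2.59 keep to the right of the 2-fold line and Sgo2a to the left of its own, while the grey bar of Rec8 runs between 2.56 and 27.7.

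These calls held without the 11 oocyte-like libraries that had over 1000 CPM of cumulus and granulosa markers (3 higher, 1 lower), and without the 8 2-cell-like libraries that had under 9000 genes (3 higher, 1 lower), 2 choices made after the values were seen. They also held without the negative controls (3 higher, 1 lower). Inside single labels they held only in part. In the label wild-type oocyte (7 2-cell-like, 12 oocyte-like), Hormad1 was 27.7 and 14.4, Sycp3 55.5 and 28.3 and Sgo2a 78.6 and 148 CPM. Each of these was under 2-fold apart, and Stag3, at 3.50 and 0.878 CPM, was under the filter's 10 CPM. In the label mutant 2-cell (11 and 9), each was past 2-fold. There Hormad1 was 33.0 and 6.70, Stag3 15.4 and 0.195, Sycp3 77.2 and 21.2 and Sgo2a 55.2 and 119 CPM. Scaling by trimmed means (TMM) lowered the median log2 ratio of all genes by 0.24, and the ratios became 10.4 for Stag3, 3.17 for Hormad1, 2.22 for Sycp3 and 0.352 for Sgo2a, on the same sides of 2-fold. Library 74, labelled mutant 2-cell, had no count of any of the 8 genes.

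Promoter sequences are shown for the 3 genes that were at least 2-fold higher and the 1 that was lower, because the higher ones share a motif. They are from RefSeq on GRCm38.p6, an earlier build than the authors' GRCm39, and run 250 bases before to 50 bases after the annotated start, 5′ to 3′ on the gene's strand. Capitals mark the E-box CACGTG and the E2F core TCCCGC, which reads GCGGGA on the other strand.
Hormad1, chr3:95559427-95559726, plus strand: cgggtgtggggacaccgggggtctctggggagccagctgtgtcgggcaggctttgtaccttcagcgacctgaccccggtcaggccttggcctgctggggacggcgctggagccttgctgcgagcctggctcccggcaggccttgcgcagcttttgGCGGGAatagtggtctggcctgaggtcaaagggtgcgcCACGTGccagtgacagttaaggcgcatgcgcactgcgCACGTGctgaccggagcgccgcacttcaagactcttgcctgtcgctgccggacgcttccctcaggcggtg
Stag3, chr5:138280259-138280558, plus strand: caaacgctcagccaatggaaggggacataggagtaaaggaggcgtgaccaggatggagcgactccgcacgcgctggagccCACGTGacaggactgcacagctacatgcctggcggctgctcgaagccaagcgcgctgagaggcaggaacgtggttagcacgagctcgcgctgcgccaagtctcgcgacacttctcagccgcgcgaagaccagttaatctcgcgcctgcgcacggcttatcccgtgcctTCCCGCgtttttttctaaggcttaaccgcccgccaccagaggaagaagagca
Sycp3, chr10:88459337-88459636, plus strand: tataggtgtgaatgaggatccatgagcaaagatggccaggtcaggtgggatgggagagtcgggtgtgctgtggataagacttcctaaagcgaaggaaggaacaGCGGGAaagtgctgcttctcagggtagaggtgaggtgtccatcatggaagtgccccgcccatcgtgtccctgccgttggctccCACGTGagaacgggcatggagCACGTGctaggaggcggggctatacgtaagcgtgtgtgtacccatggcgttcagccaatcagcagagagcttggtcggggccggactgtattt
Sgo2a, chr1:57985090-57985389, plus strand: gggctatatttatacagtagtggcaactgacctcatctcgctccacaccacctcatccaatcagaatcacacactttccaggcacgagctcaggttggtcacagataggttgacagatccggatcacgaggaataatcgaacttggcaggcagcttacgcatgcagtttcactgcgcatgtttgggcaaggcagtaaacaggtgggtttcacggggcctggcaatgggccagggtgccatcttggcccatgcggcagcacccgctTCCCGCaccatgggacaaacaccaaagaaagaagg
The E-box occurs at -57 and -20 from the start in Hormad1, at -170 in Stag3 and at -64 and -43 in Sycp3, and in none of the other 4 promoters at hand (Rec8, Smc1b, Sgo2a and Stag1; for Hormad1 and Sgo2a the first of 2 entries was read). Among 32851 promoters of the same length, 7.15% hold it. The E2F core is in 7 of 7, against 20.0% of all promoters, and CCAAT or ATTGG is in 6 of 7, against 37.4%. These E-boxes and E2F cores do not overlap each other. The motifs were picked after the sequences had been looked at, so these counts describe the letters only, and a match is not a binding site.

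Levels of different genes can be set side by side only per length, here CPM per kilobase of GENCODE transcript. In 2-cell-like libraries the pooled order was Sycp3 (48.6), Hormad1 (19.9), Rad21 (16.2), Sgo2a (9.81), Stag1 (3.77), Stag3 (3.04), Smc1b (1.94) and Rec8 (1.77). In oocyte-like libraries it was Sgo2a (23.9), Sycp3 (18.8), Rad21 (18.7), Hormad1 (5.40), Stag1 (5.13), Smc1b (2.87), Rec8 (0.307) and Stag3 (0.25). The ranges over libraries overlapped between all neighbours in both orders. On this scale Smc3, the arm common to mitotic and meiotic cohesin, was 6.31 in 2-cell-like and 55.9 in oocyte-like libraries, above all 8 genes in the oocyte-like class and below 4 of them in the 2-cell-like class.

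The meiotic share of each subunit was also read inside each library, where scaling plays no part. Shares were taken where the pair or trio had at least 20 counts. Stag3 made up 0% to 79.4% of the Stag3, Stag1 and Stag2 counts in 35 2-cell-like libraries (median 4.52%), against 0% to 4.09% in 38 oocyte-like libraries (median 0%). The pooled shares were 14.0% in 2-cell-like and 0.579% in oocyte-like libraries, so the STAG counts of oocyte-like libraries came almost wholly from Stag1 and Stag2. Smc1b made up a median of 15.8% of Smc1b and Smc1a counts in 28 2-cell-like libraries and 25.1% in 36 oocyte-like libraries. Its pooled shares were 29.6% in 2-cell-like and 28.6% in oocyte-like libraries, and the 2-cell-like libraries ran between 0% and 100%. Rec8 had a median share of 0% of Rec8 and Rad21 counts in both classes, with pooled shares of 5.71% in 2-cell-like and 0.899% in oocyte-like libraries; it was at 0 in 28 of 36 2-cell-like and 35 of 38 oocyte-like libraries. For the STAG share, the highest oocyte-like library, at 4.09%, lay below the 2-cell-like median of 4.52%. The classes overlapped at 0 and also above it, as in 2-cell-like library 39, with 1 Stag3 count beside 42 of Stag1.

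**Figure D3:**
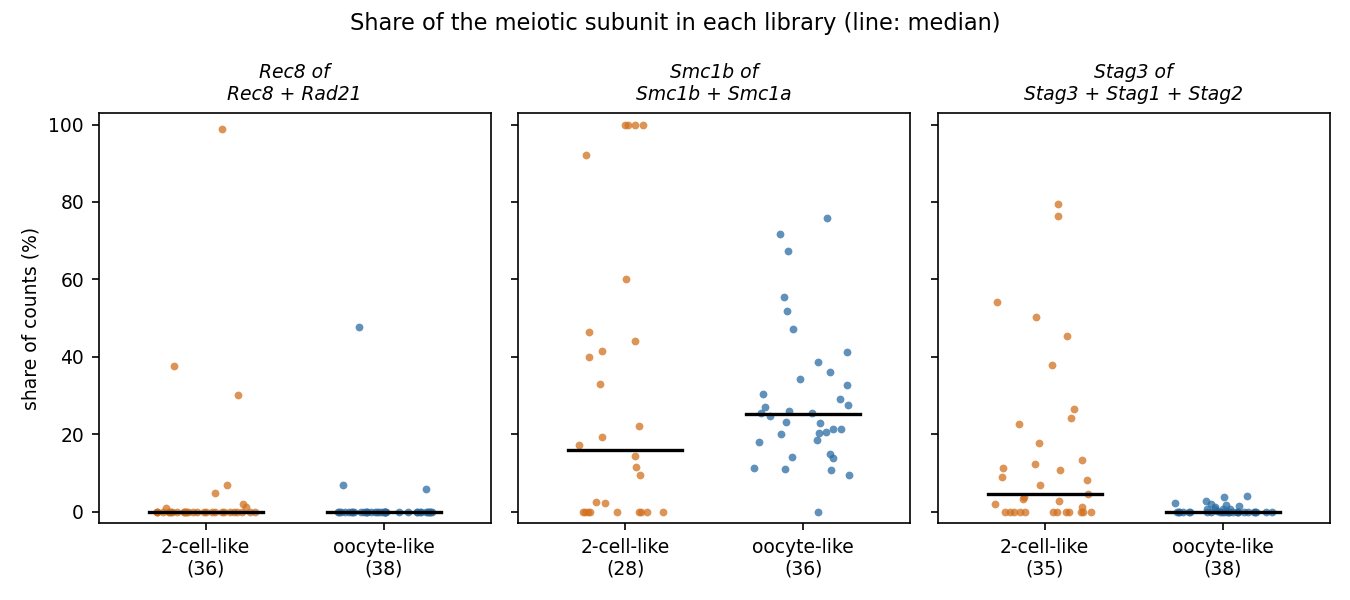
Share of counts (percent) from the meiotic subunit among it and its mitotic paralogues in each library, 2-cell-like left and oocyte-like right in each panel, with the number of libraries in brackets and a line at the median. The Stag3 share reaches 79.4% in 2-cell-like and 4.09% in oocyte-like libraries, and the Smc1b shares are scattered in both.

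Within the classes the 8 genes moved together only in part. Over the 28 pairs, Spearman's rho of log2(CPM + 1) ran between -0.30 and 0.58 in 2-cell-like libraries (median 0.13) and between -0.40 and 0.61 in oocyte-like libraries (median 0.23). Each is over 39 libraries that share amplification and scaling, and is a description. The highest value in both classes was that of Sycp3 and Rad21 (rho 0.58 in 2-cell-like and 0.61 in oocyte-like libraries). Over the 78 libraries of both classes, the genes most like Sgo2a among 9676 searched were Kctd18 (rho 0.79), Ssb (0.76) and Riok2 (0.75), and those most like Sycp3 were Cetn3 (0.77), Osbpl8 (0.77) and Psip1 (0.75). The highest values were lower for Hormad1 (Btbd18 0.65, Cdc25c 0.63, Dppa4 0.63), Rad21 (Vbp1 0.65, Srsf10 0.60, Esco2 0.59), Smc1b (Pola1 0.64, Trim59 0.63, Dnajc13 0.61), Stag1 (Zfp998 0.62, Nrd1 0.57, Tmtc3 0.57) and Stag3 (Gm19461 0.52, Ybx2 0.50, Plk2 0.48). Such values across classes include the difference between the classes.

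Inside a class, the deposited labels can still be read. In the oocyte-like libraries, 9 labelled mutant (all 2-cell) were set against 26 labelled wild type (14 2-cell and 12 oocyte). The genotype comparison thus also mixes stage labels. Of the 5 genes that passed the filter 0 were 2-fold apart, where 16.2% of all genes were (0.429% higher and 15.8% lower). Sgo2a was 119 CPM in mutant-labelled and 122 CPM in wild-type-labelled libraries, and Rad21 was 79.8 CPM in mutant-labelled and 74.4 CPM in wild-type-labelled libraries. Under the mutant label Sycp3 was 21.2 CPM, Stag1 37.0 CPM and Smc1b 12.5 CPM, and under the wild-type label they were 22.4, 30.9 and 11.0 CPM. The other 3 genes were too low to pass: under the mutant label Hormad1 was 6.70 CPM, Rec8 0.195 CPM and Stag3 0.195 CPM, and under the wild-type label they were 7.45, 0.928 and 1.22 CPM. Without mutant-labelled library 94 the Hormad1 ratio, mutant over wild-type label, was 0.309, against 0.899 with it. In the 14 libraries labelled wild-type 2-cell alone, Sgo2a was 95.8 CPM, Rad21 65.3 CPM, Sycp3 16.5 CPM, Stag1 27.4 CPM and Smc1b 7.59 CPM. Each of these was under its mutant-labelled level, as was Hormad1 at 0.555 CPM, while Rec8 (1.85 CPM) and Stag3 (1.56 CPM) were above it.

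Hormad1 was uneven within the wild-type-labelled oocyte-like libraries. In the 14 labelled 2-cell it was 0, 0 and 3.59 CPM at lowest, median and highest, against 0, 17.3 and 41.5 CPM in the 12 labelled oocyte. A count was present in 4 of 14 labelled 2-cell and 10 of 12 labelled oocyte, with pooled levels of 0.555 and 14.4 CPM. The ranges overlapped at their low end. In the 9 oocyte-like libraries labelled mutant 2-cell, Hormad1 was 0, 0 and 45.2 CPM at lowest, median and highest, so that label spanned both patterns. Sgo2a in the same wild-type-labelled libraries was 36.4, 90.3 and 200 CPM for the label 2-cell and 62.4, 132 and 365 CPM for the label oocyte, which overlapped widely.

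In the 2-cell-like libraries, 30 labelled mutant (19 oocyte and 11 2-cell) were set against 7 labelled wild type, all 7 of them labelled oocyte. Of 6 genes that passed, 2 were at least 2-fold higher and 0 lower; 24.9% of all genes were past 2-fold, 18.6% higher and 6.32% lower. Stag3 had a count in 18 of 30 mutant-labelled and 3 of 7 wild-type-labelled libraries. Its pooled level was 14.9 CPM in mutant-labelled and 3.50 CPM in wild-type-labelled libraries, a ratio of 4.27 (3.12 to 6.00) that was 8.29 without wild-type library 8. Stag1 was 25.3 CPM in mutant-labelled and 11.2 CPM in wild-type-labelled libraries, a ratio of 2.26 (1.89 to 2.73). This fell under 2-fold without library 7 (1.99), 8 (1.88) or 43 (1.83). The 19 labelled mutant oocyte had 30.5 CPM of Stag1 and the 11 labelled mutant 2-cell 11.8 CPM, near the wild-type-labelled level. Stag3 was 14.8 CPM under the label mutant oocyte and 15.4 CPM under mutant 2-cell. Sgo2a was 42.9 CPM in mutant-labelled and 78.6 CPM in wild-type-labelled libraries, 1.83-fold lower, and went past 2-fold without library 4 (2.13) or 7 (2.03). Under the mutant label Hormad1 was 29.5 CPM, Sycp3 58.1 CPM and Rad21 69.4 CPM, and under the wild-type label they were 27.7, 55.5 and 52.6 CPM, all within 2-fold. With 7 wild-type-labelled libraries, single libraries decide the calls on Stag1 and Sgo2a. Rec8 had 250 counts in the mutant-labelled libraries and 1 in the wild-type-labelled ones and did not pass; Smc1b, at 8.17 CPM in mutant-labelled and 8.79 CPM in wild-type-labelled libraries, did not pass either.

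**Figure D4:**
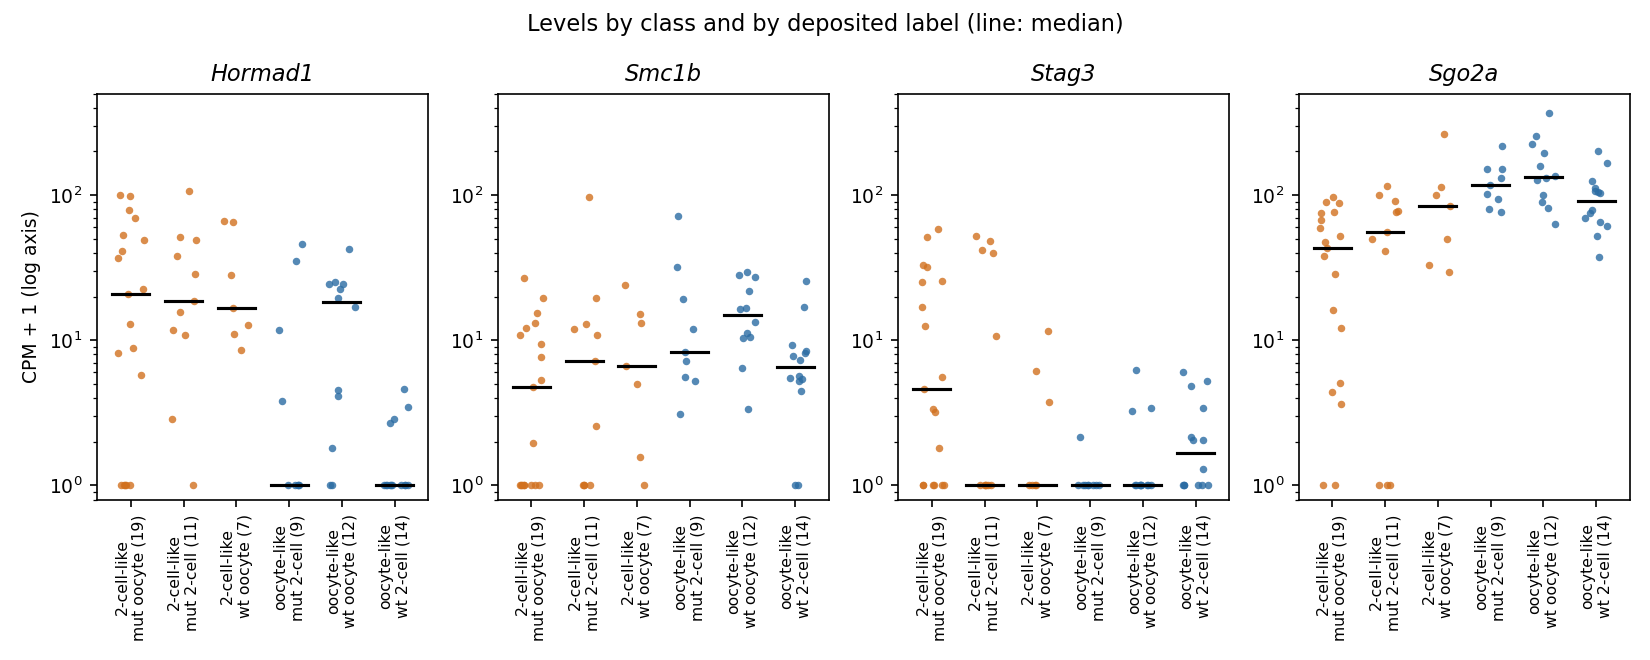
CPM plus 1, on a log axis, of Hormad1, Smc1b, Stag3 and Sgo2a by class and by deposited label (mut, mutant; wt, wild type), with the number of libraries in brackets and a line at the median; kept negative controls are not drawn. Hormad1 is at 0 in most oocyte-like libraries labelled wild-type 2-cell (10 of 14) and above 0 in most labelled wild-type oocyte (10 of 12).

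Read by label alone, the genotype comparisons mix the classes. Among libraries labelled oocyte, 19 mutant ones, all 2-cell-like, stood against 19 wild-type ones, 7 of them 2-cell-like. Of 7 genes that passed, 1 was higher and 2 were lower (all genes: 39.5% past 2-fold, 16.8% higher and 22.7% lower; higher calls were 42.4% of all calls, and 31.3% with TMM scaling). Stag3 was 14.8 CPM in mutant-labelled and 1.5 CPM in wild-type-labelled libraries, a ratio of 9.84 (7.71 to 12.7). Sgo2a was 38.2 CPM in mutant-labelled and 132 CPM in wild-type-labelled libraries, 3.45-fold lower. Smc1b was 5.99 CPM in mutant-labelled and 13.0 CPM in wild-type-labelled libraries, 2.18-fold lower, and came just under 2-fold without library 9 (1.99) or 43 (1.98). Among libraries labelled 2-cell, 21 mutant ones, with library 86 of neither class among them, stood against 14 wild-type ones. Here 6 genes passed, 2 of them higher and 0 lower (all genes: 19.7% past 2-fold, 7.88% higher and 11.8% lower). Hormad1 was 15.1 CPM in mutant-labelled and 0.555 CPM in wild-type-labelled libraries, a ratio of 27.1 (17.6 to 44.1; 44.3 without library 60). Sycp3 was 39.2 CPM in mutant-labelled and 16.5 CPM in wild-type-labelled libraries, a ratio of 2.38 that was 1.91 without library 88. In both stages the class moves with the genotype label, so class and genotype cannot be told apart in these ratios.

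Of 4 further subunits of the cohesin ring, 3 passed, and in 2-cell-like libraries 2 of them, Smc3 and Stag2, were lower and 0 higher (median log2 ratio -1.43). Smc1a was 1.55-fold lower, within the 2-fold limit, and Rad21l did not pass. Smc3 was 30.6 CPM in 2-cell-like and 271 CPM in oocyte-like libraries, 8.87-fold lower (8.47 to 9.28), and Stag2 was 55.3 CPM in 2-cell-like and 149 CPM in oocyte-like libraries, 2.70-fold lower. Of 12 genes that load, lock, release or cut cohesin, 12 passed, 1 was higher and 1 lower (median log2 ratio 0.60). Cdca5, which encodes sororin, the guard of cohesion in mitosis, was 362 CPM in 2-cell-like and 154 CPM in oocyte-like libraries, 2.35-fold higher. Espl1, which encodes separase, was 86.1 CPM in 2-cell-like and 224 CPM in oocyte-like libraries, 2.60-fold lower.

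Of 15 genes for the protection of cohesion at centromeres, 14 passed, 1 was higher and 4 lower (median log2 ratio -0.49). The Aurora kinase genes Aurkc (251 CPM in 2-cell-like and 615 CPM in oocyte-like libraries, 2.45-fold lower) and Aurkb (15.5 CPM in 2-cell-like and 38.1 CPM in oocyte-like libraries, 2.47-fold lower) were among the lower ones. Ppp2r1a, the scaffold subunit of PP2A, was 120 CPM in 2-cell-like and 275 CPM in oocyte-like libraries, 2.30-fold lower. Ppp2r5b, a regulatory PP2A subunit, was 22.6 CPM in 2-cell-like and 4.05 CPM in oocyte-like libraries, 5.58-fold higher.

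Of 20 further axis and synaptonemal complex genes, 9 passed, 2 were higher and 2 lower (median log2 ratio -0.24). The central element gene Syce2 was 672 CPM in 2-cell-like and 127 CPM in oocyte-like libraries, 5.30-fold higher, and Sycp1, the transverse filament gene, was 28.9 CPM in 2-cell-like and 9.64 CPM in oocyte-like libraries, 3.00-fold higher. Sun1, whose product ties telomeres to the nuclear envelope, was 30.9 CPM in 2-cell-like and 200 CPM in oocyte-like libraries, 6.46-fold lower, and Mei4, needed for meiotic DNA breaks in mice, was 17.6 CPM in 2-cell-like and 38.2 CPM in oocyte-like libraries, 2.17-fold lower. Of 19 recombination genes in the table, 8 passed, 2 were higher (Tex11 2.26-fold and Exo1 2.02-fold) and 0 lower. Of 15 genes of condensin, the SMC5/6 complex and topoisomerase II, 15 passed, 0 were higher and 7 lower (median log2 ratio -0.68). The largest changes there were in Smc4 (49.7 CPM in 2-cell-like and 533 CPM in oocyte-like libraries, 10.7-fold lower), Ncaph (12.0 CPM in 2-cell-like and 128.5 CPM in oocyte-like libraries, 10.7-fold lower) and Ncapg (45.2 CPM in 2-cell-like and 242 CPM in oocyte-like libraries, 5.36-fold lower), all condensin subunits. Against the background of 20.9% higher and 27.8% lower, the lists differ in size. They were chosen for function with earlier results of these data known, and no list was tested.

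**Figure D5:**
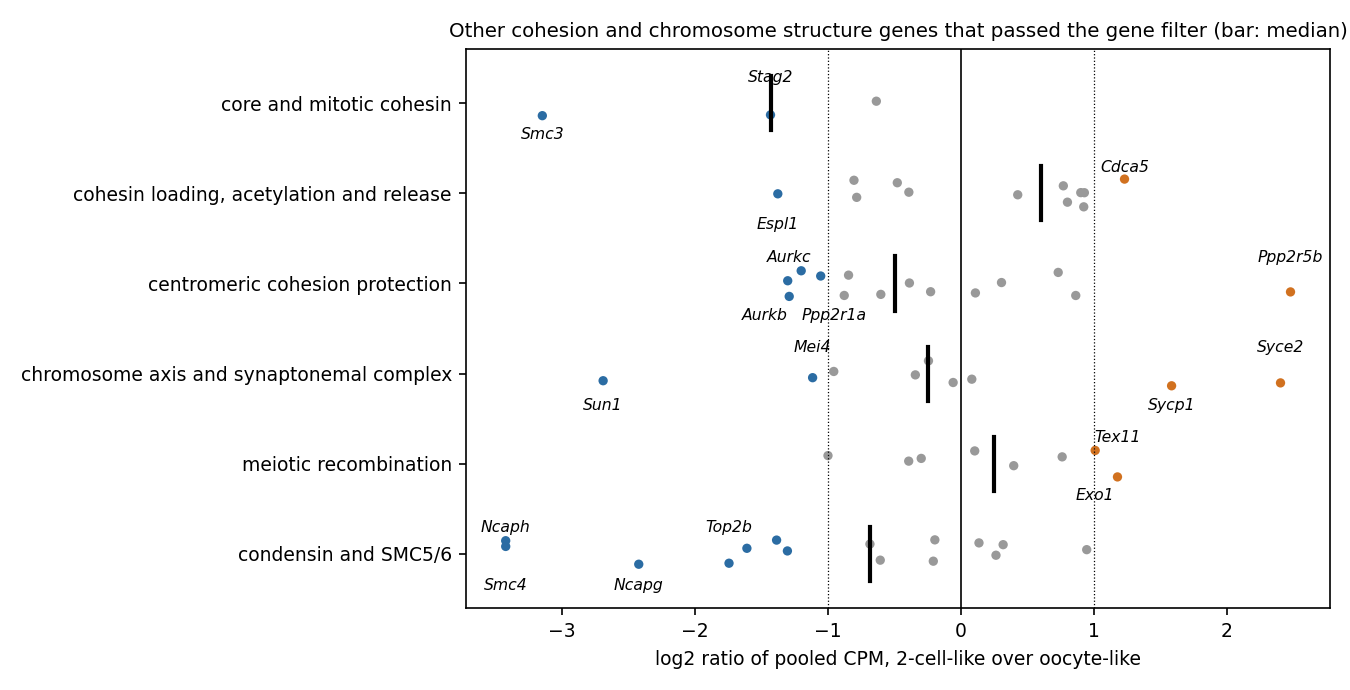
Log2 ratio of pooled CPM, 2-cell-like over oocyte-like, for genes of 6 further lists that passed the gene filter, 1 point per gene with a bar at the median of the list; dotted lines are 2-fold, orange is at least 2-fold higher, blue at least 2-fold lower, and the named genes are up to 4 per list with the largest ratios. Smc3, at 8.87-fold lower, and Smc4 and Ncaph, both at 10.7-fold lower, lie farthest to the left.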

How the data were processed

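Single-cell RNA libraries of mouse oocytes and 2-cell blastomeres were analysed from the deposited table of raw counts per gene and library. The submitters' processing notes name Trim Galore 0.4.4, HISAT2 2.1.0, DESeq2 and the mouse build GRCm39 for the authors' own processing. The counting tool, annotation and strand setting are not given in the sources used here, and the protocols name no molecular identifiers. The table had 36983 entries, and 48 that repeated a symbol were summed, which left 36935 symbols. Libraries needed 100000 counts and 4000 genes.

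Counts were divided by library totals (CPM), and groups were compared by the ratio of pooled CPM with an exact conditional binomial 95% interval, using Python 3.11.15 and SciPy 1.17.1. PCR reads without identifiers are not independent molecules, so intervals cover counting error only. Genes were compared at 10 or more pooled CPM in 1 group with a count in at least 50% of its libraries, and called at 2-fold. A gene could thus pass through the group where it was higher. Alternatives used TMM factors (edgeR 4.0.16), DESeq2 1.42.0 size factors, medians or means over libraries, no gene filter, other library and class thresholds, and leaving out each library. The code was tested on simulated data. Within a label group no 2 kept libraries were near-identical: the lowest chi-square per gene between any pair was 6.32. Each cell was picked singly, so doublets were not searched for.

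The 8 genes and the further lists were chosen with earlier results of these data known. Genes named were all 8, up to 4 per further list with the largest ratio past 2-fold, and the 3 genes most correlated with each of the 7. Promoters are from RefSeq; Rad21 had no entry. Transcript lengths are from GENCODE M21 on GRCm38.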

Additional observations from a re-analysis of the deposited data

Results flagged for a closer look

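Of 30 groups of 4 to 9 libraries looked at, 10 had a highest library far from the others by Dixon's criterion. Its rate of about 1 group in 20 by chance holds for normally distributed values, and many values here are 0. Where all other libraries are at 0, any count is marked, as for Rec8 in libraries 87 and 4 and Stag3 in libraries 85 and 96. The 4 oocyte-like controls are also among the 6 kept ones, so the 10 cannot be set against that rate. All 10 were high values. Among the 9 oocyte-like libraries labelled mutant, library 89 had 71.1 CPM of Smc1b and 236 CPM of Rad21, library 87 had 3.54 CPM of Rec8, and library 85 had 1.16 CPM of Stag3. Among the 7 2-cell-like libraries labelled wild type, library 5 had 262 CPM of Sgo2a, and library 4 had 0.398 CPM of Rec8, which is 1 count. Among the 6 kept negative controls, library 24 had 15.4 CPM of Hormad1 and 22.2 CPM of Smc1b, and library 47 had 20.0 CPM of Stag3. Among the 4 negative controls that were oocyte-like, library 96 had 5.20 CPM of Stag3.

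Counts of these genes were also present in libraries left out of the class comparison. Library 86, labelled mutant 2-cell, was in neither class and entered only the comparison of genotype labels among libraries labelled 2-cell. It had 10.5 CPM of Sycp3, 4.63 CPM of Sgo2a and 3.37 CPM of Rad21, where 3 counts are 1.26 CPM. The 17 libraries that were not kept entered no comparison. Pooled, they had 51.5 CPM of Sycp3, 0.979 CPM of Sgo2a, 36.8 CPM of Stag1 and 91.3 CPM of Rad21, where 3 counts are 0.588 CPM. Single libraries hold most counts of 3 of these genes: library 82 nearly all of Rad21 (459), library 1 122 of 188 of Stag1 and library 66 4 of 5 of Sgo2a. The 263 Sycp3 counts were more spread, with 102 in library 13, 92 in library 1 and 66 in library 82. Without the library that holds the largest number of a gene's counts, the pooled level was 33.4 CPM for Sycp3, 0.198 CPM for Sgo2a, 27.4 CPM for Stag1 and 1.62 CPM for Rad21.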

How the results depend on the processing

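Stag3, Hormad1, Sycp3 and Sgo2a kept their side of 2-fold between the classes under every setting tried, but no setting held the label fixed. Within the label wild-type oocyte, Hormad1, Sycp3 and Sgo2a were under 2-fold apart between the classes, and Stag3 was under the filter's 10 CPM. Within the label mutant 2-cell, all 4 were past 2-fold. The count of genes past 2-fold between the classes was 4 to 4 when each library was left out. Between genotype labels it was 0 to 0 in oocyte-like libraries, 1 to 3 in 2-cell-like libraries, 2 to 3 among libraries labelled oocyte and 1 to 3 among those labelled 2-cell. With no gene filter, 2 genes (Rec8 and Stag3) were past 2-fold, both lower, for mutant against wild-type label in oocyte-like libraries, against 0 with it; both had 5 counts in the mutant-labelled libraries. No gene that passed the filter and was past 2-fold changed direction. Genes that did not pass were less stable: among libraries labelled 2-cell, the log2 ratio of Stag3, mutant over wild-type label, was 1.74 pooled and -3.23 by medians, and in oocyte-like libraries that of Rec8 was -2.25, and 0.47 without library 61. Single libraries carry Rec8: library 31 holds 57.4% of its 251 counts in 2-cell-like libraries, and library 61 holds 80.0% of its 75 counts in oocyte-like libraries. No paired analysis was possible because each label number belongs to a single library and groups share none.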
